A study of Mus musculus with 16 samples.

Results

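The axoneme of motile cilia and sperm flagella was described here through 104 protein-coding genes, of 55266 genes (21637 of them protein-coding) in the deposited matrices. The genes were chosen by name: symbols starting with Cfap, Dnah, Dnai, Dnaaf, Drc, Tekt or Rsph, together with Ccdc39, Ccdc40, Spag6l, Spag16, Spag17, Hydin and Foxj1. The naming rule itself uses no measured value, and all 104 had at least 1 count in the libraries described below. RNA was measured in frontal cortex (FC) and cerebellum (Cere) of mice that lacked Upf3b, an X-linked factor of nonsense-mediated RNA decay (NMD) (Upf3b-KO), and of control mice (Ctrl). Each of the 4 groups held 4 libraries of total RNA from bulk tissue. The study describes 4 adult Upf3b-null mice and 4 littermate controls, so both regions came from the same animals. Which libraries share an animal was not given in the sources used here, and comparisons between the regions treated them as separate samples. Within groups, the median over genes of variance over mean of depth-scaled counts was 1.52 to 1.94, where counting error alone gives about 1. SDs and p values below describe the spread between these libraries. Whether it holds the full spread between animals was not tested. Sex, strain and how the null allele was made were not found in the sources used here.

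A motile cilium is built on a ring of microtubule doublets around a central pair. Dynein arms on the doublets drive the beat, radial spokes and the central apparatus control it, and proteins inside the doublets, tektins among them, brace the wall. In the brain such cilia stand on ependymal cells and, in smaller number, on the choroid plexus, and a related axoneme drives the sperm tail. Foxj1 is the transcription factor that switches on this set of genes in multiciliated cells. Several members also serve outside motile cilia, and the symbol does not tell which.

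Levels are given in CPM, the counts of a gene scaled to the same total in each library, and levels of different genes are compared only in TPM, which also divides by transcript length. The 15 libraries used held 27660078 to 35238677 counts. The library labelled Cere Upf3b-KO 1 held 64981 counts, at which 3 counts are worth 46.2 CPM, and it was left out, so that Cere Upf3b-KO has 3 libraries. Upf3b itself was at 14.2 to 15.7 CPM in FC Ctrl against 0.229 to 0.857 CPM in FC Upf3b-KO, and at 20.9 to 23.6 CPM in Cere Ctrl against 0.617 to 0.965 CPM in Cere Upf3b-KO. Of 8 cerebellar neuron markers, 8 were called higher in Cere Ctrl than in FC Ctrl, and of 8 cortical neuron markers 6 were called lower. Cux2 and Neurod2 were not called, and Neurod2 was the higher in Cere Ctrl (81.8 against 50.4 CPM). Calls of a change needed both an adjusted p below 0.01 and more than a 2-fold change (edgeR's quasi-likelihood test, with p adjusted by Benjamini-Hochberg across every gene tested).

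Promoters are shown for the named members whose window held an X-box, the site that RFX transcription factors of ciliated cells bind, because Rfx2 and Rfx3 are measured below. The windows are RefSeq's (GRCm38.p6), 250 bases before to 50 after the gene start, on the gene's strand, and the capitals mark the match to GTNNCC and GGNAAC with 2 bases between them, or to its reverse complement.
Cfap206, chr4:34730157-34730456, minus strand: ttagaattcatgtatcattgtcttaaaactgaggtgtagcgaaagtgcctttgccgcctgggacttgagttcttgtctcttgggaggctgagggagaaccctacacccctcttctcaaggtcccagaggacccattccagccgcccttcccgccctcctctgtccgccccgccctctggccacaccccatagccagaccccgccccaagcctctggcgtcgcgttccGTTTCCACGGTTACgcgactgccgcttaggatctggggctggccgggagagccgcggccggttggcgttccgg
Spag6l, chr16:16829314-16829613, minus strand: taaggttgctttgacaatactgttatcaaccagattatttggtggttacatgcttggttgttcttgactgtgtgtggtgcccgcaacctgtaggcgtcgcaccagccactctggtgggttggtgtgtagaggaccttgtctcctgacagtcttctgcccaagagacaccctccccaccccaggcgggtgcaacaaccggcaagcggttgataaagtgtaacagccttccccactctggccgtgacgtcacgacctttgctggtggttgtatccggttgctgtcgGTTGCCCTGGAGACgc
Cfap20dc, chr14:8666241-8666540, minus strand: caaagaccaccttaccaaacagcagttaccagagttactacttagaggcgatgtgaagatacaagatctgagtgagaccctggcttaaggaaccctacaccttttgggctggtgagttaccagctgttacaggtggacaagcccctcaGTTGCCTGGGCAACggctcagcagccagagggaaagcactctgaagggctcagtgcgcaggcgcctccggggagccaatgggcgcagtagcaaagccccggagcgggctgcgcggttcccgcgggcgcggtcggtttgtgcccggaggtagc
RefSeq windows were matched for 67 of the 104 genes. On either strand, this X-box pattern stood in 7 of the 67 (10.4%) and in 1.49% of the 27025 genes with a window. In all, 5 patterns were counted together, and this one was taken as the X-box, and so decided which promoters are shown, after all 5 counts had been seen. The single site GTTGCC stood in 28 of 67 (41.8%) against 14.1% of all genes, the forkhead pattern TGTTTAC in 4 (5.97%) against 4.05%, GTTGCC followed by ATGG in 2 (2.99%) against 0.633%, and the strictest X-box (GTTNCC and GGNAAC with AT between them) in 0 of 67 against 0.152%. The single site overlaps the longer patterns. A match describes letters in a window and was not tested as a binding site.

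Most axoneme genes were low in the control brain, and the median level was higher in Upf3b-KO. The median member was at 1.58 to 1.70 CPM in the FC Ctrl libraries and at 4.89 to 5.20 CPM in FC Upf3b-KO. In cerebellum it lay between 0.463 and 0.603 CPM in Ctrl and between 2.31 and 2.53 CPM in Upf3b-KO. Between 65 and 69 members reached 1 CPM in FC Ctrl libraries and between 91 and 96 in FC Upf3b-KO, against 40 to 44 and 72 to 76 in cerebellum. In bulk tissue, fewer cells of a type and less RNA per cell cannot be told apart.

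**Figure D1:**
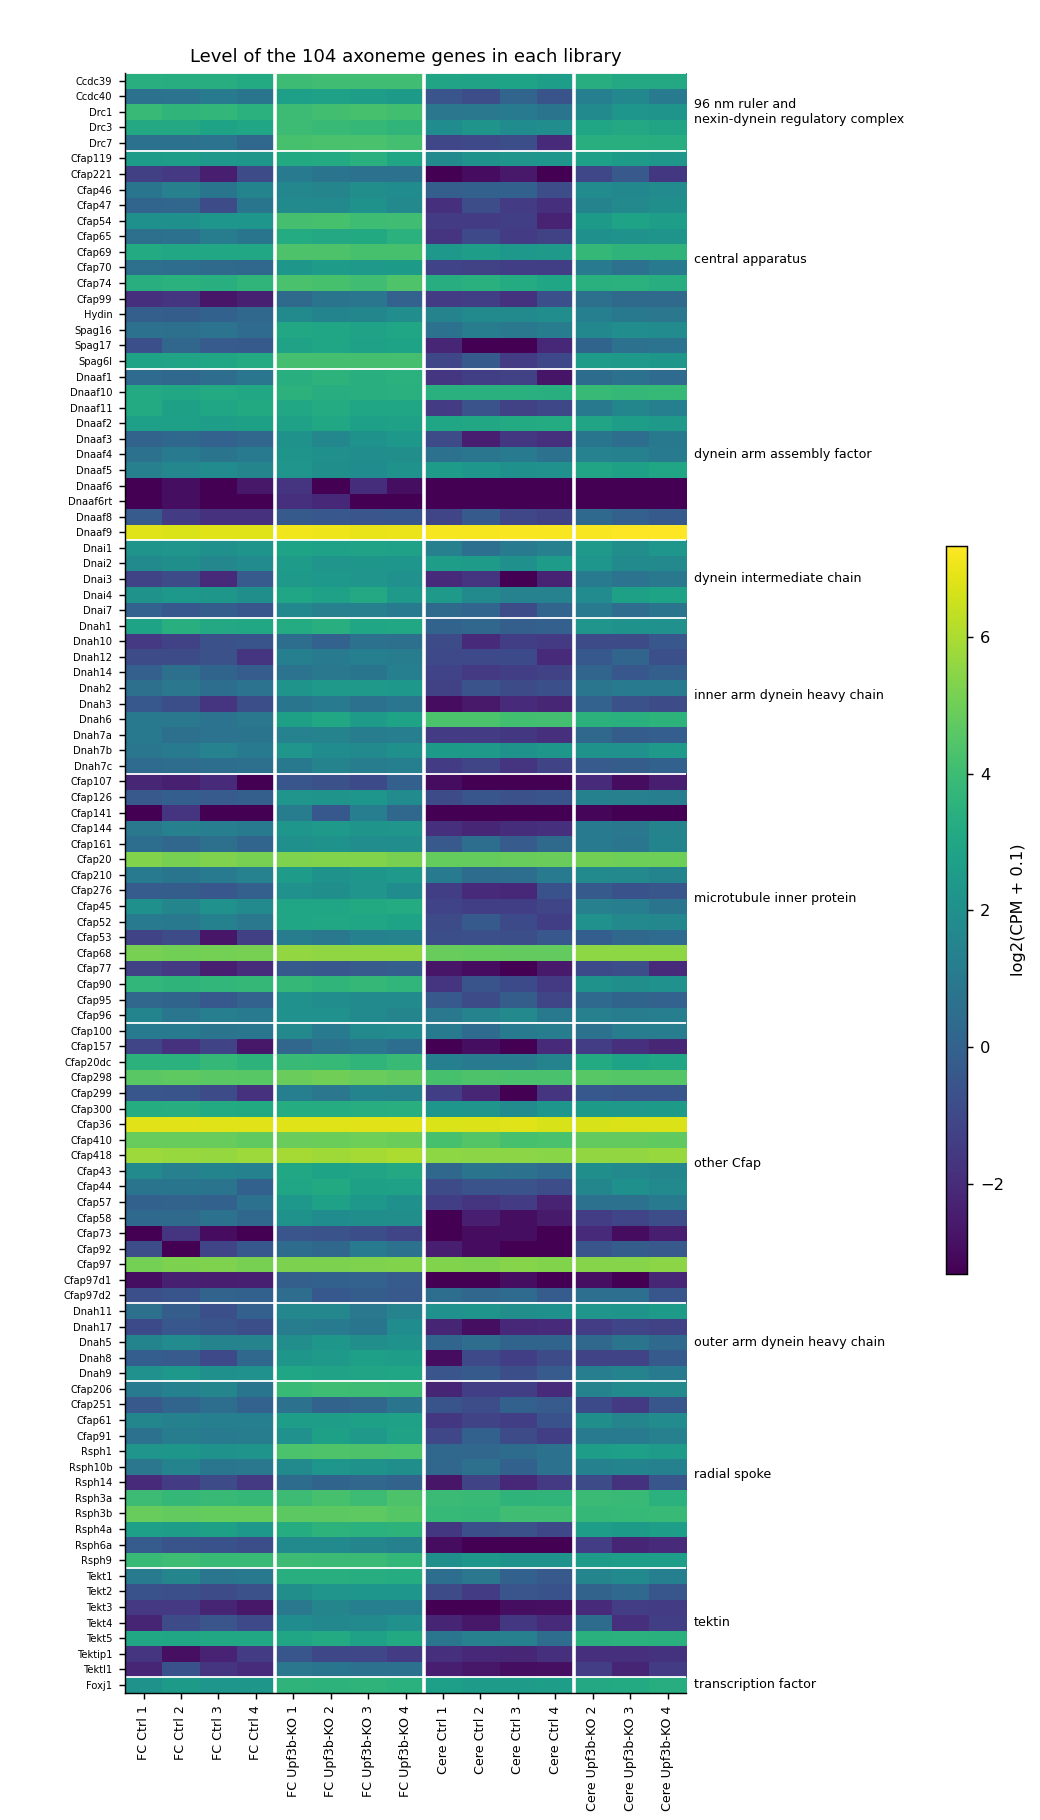
Level of each of the 104 axoneme genes (rows, grouped by role) in each of the 15 libraries (columns), as log2(CPM + 0.1). The median member sits at 1.58 to 1.70 CPM in FC Ctrl and 4.89 to 5.20 CPM in FC Upf3b-KO, and the few bright rows, such as Cfap36 and Dnaaf9, look alike in all columns.

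In frontal cortex, 59 of 101 members tested were called higher in Upf3b-KO and 0 lower. Among all 18218 genes tested, 9.16% were called higher and 1.06% lower. The median log2 fold change was 1.44 over the members and 0.004 over all genes. In 85 of 101 members every Upf3b-KO library was above every Ctrl library, against 33.1% of all genes, and in 1 (Rsph3b) every Upf3b-KO library was below, against 15.2%. DESeq2 called 58 higher and 0 lower, and with only an adjusted p below 0.05 required, 85 were higher and 2 lower (Cfap36 and Rsph3b). Some members passed the count filter only through Upf3b-KO, such as Cfap141 (0.0534 CPM in FC Ctrl, 1.54 CPM in FC Upf3b-KO). Such members could hardly be called lower, and the counts here and by role below include them. Without the filter, 59 of 104 members were called higher and 0 lower.

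In cerebellum, 45 of 88 members tested were called higher in Upf3b-KO and 0 lower, with 10.3% and 2.86% of all 17785 genes called higher and lower. The median log2 fold change was 1.04 over the members and 0.008 over all genes. Every Upf3b-KO library was above every Ctrl library in 68 members, against 36.3% of all genes. All were below in 3 members (Hydin, Dnaaf2 and Dnah6), against 27.1%. DESeq2 called 50 higher and 0 lower, and with only an adjusted p below 0.05 required, 65 were higher and 4 lower (Hydin, Dnaaf2, Dnai2 and Dnah6). Here too, some members passed the count filter only through Upf3b-KO, such as Cfap92 (0.0290 CPM in Cere Ctrl, 0.687 CPM in Cere Upf3b-KO). They could hardly be called lower. Without the filter, 51 of 101 members were called higher and 0 lower.

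Foxj1 (chr11:116221530-116226225, GRCm39, as are the gene positions that follow) was at 4.32, 5.52, 4.78 and 4.87 CPM in FC Ctrl and at 12.1, 11.6, 12.0 and 11 CPM in FC Upf3b-KO. The groups did not overlap, and the log2 fold change was 1.18 ± 0.092 (SE; adjusted p = 4.79e-10). In cerebellum it was at 6.34, 5.62, 5.68 and 6.11 CPM in Ctrl and at 8.48, 8.91 and 9.90 CPM in Upf3b-KO, a log2 difference of 0.57 ± 0.10 (adjusted p = 6.94e-05) that stayed under the fold limit. The difference between the regions was -0.63 ± 0.14 (adjusted p = 3.92e-04), also under the limit.

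Other regulators of ciliogenesis were followed as a list of 11 genes. In frontal cortex 4 of 9 tested were called higher, namely Myb, Trp73, Rfx2 and Deup1, and 0 lower. In cerebellum Myb and Deup1 were called higher, 2 of 9 tested. Rfx2 averaged 2.46 ± 0.35 CPM (SD, n = 4) in FC Ctrl and 6.49 ± 0.68 CPM (n = 4) in FC Upf3b-KO, whereas Rfx3 averaged 61.4 ± 2.1 and 66.2 ± 1.7 CPM and was not called. In cerebellum Rfx2 averaged 2.86 ± 0.84 CPM in Ctrl (n = 4) and 2.99 ± 0.57 CPM in Upf3b-KO (n = 3), and the difference between regions was called for Rfx2 (-1.31, adjusted p = 8.27e-05) and Trp73 (-1.74, adjusted p = 1.38e-07). Trp73 and Rfx3 had log2 differences of -0.36 and -0.53 in cerebellum, under the fold limit. The summed list reached at most 108 CPM in FC Ctrl and lay between 123 and 127 CPM in FC Upf3b-KO, and it lay between 79.4 and 85.2 CPM in Cere Ctrl and between 64.8 and 67.9 CPM in Cere Upf3b-KO. Most of the cerebellar difference lay in Rfx3 (26.4 and 19.0 CPM) and Rfx4 (39.8 and 32.0 CPM), neither called.

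**Figure D2:**
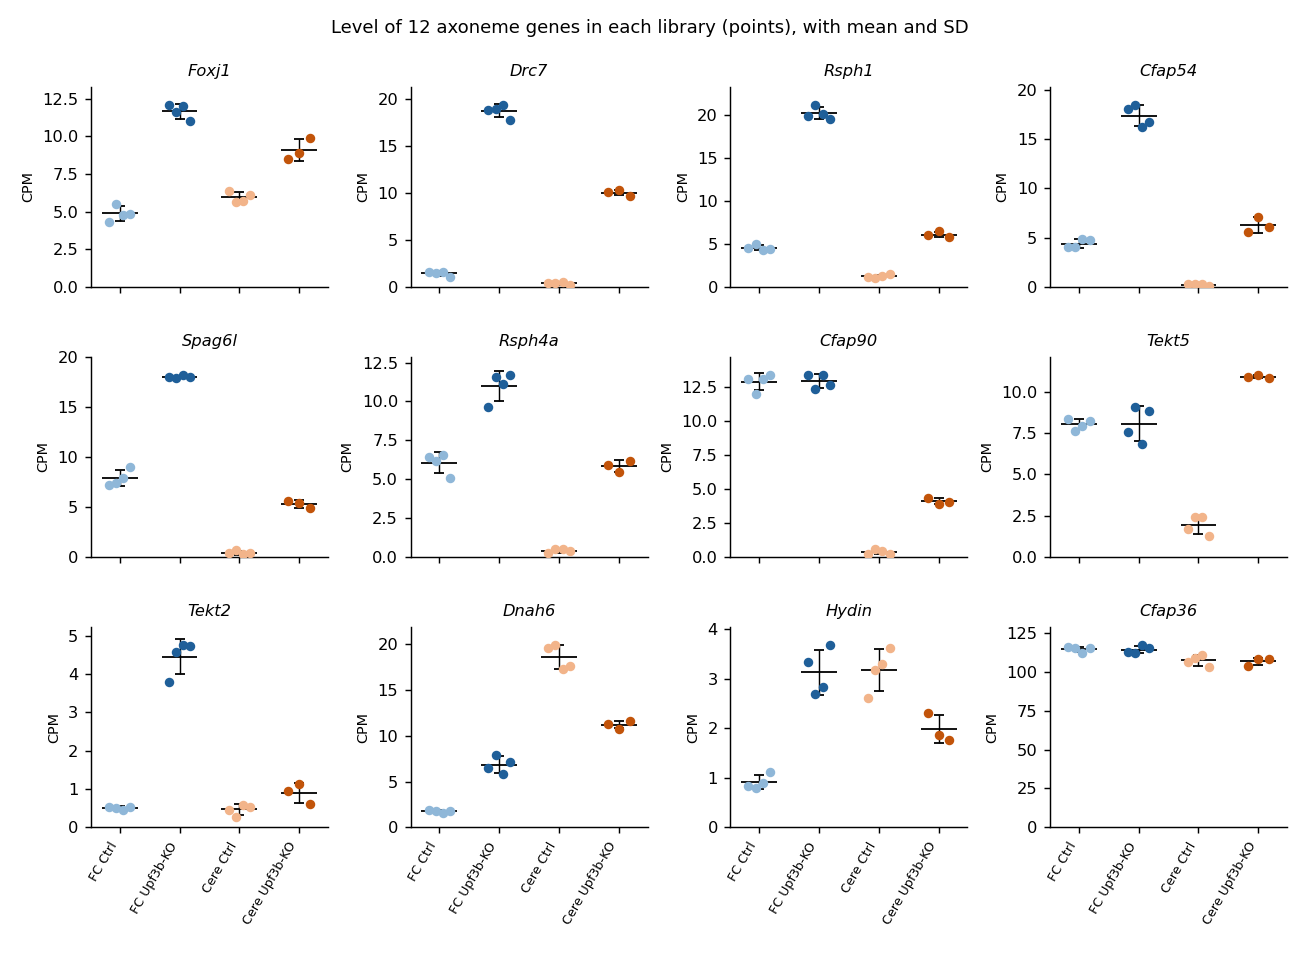
CPM of 12 axoneme genes in each library (points) of the 4 groups, with the group mean (line) and SD (bar), n = 4 except 3 for Cere Upf3b-KO. Drc7 and Rsph1 are higher in Upf3b-KO in both regions, Cfap90 and Tekt5 separate only in cerebellum, Dnah6 and Hydin move apart in opposite directions, and Cfap36 is level.

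The 96 nm ruler and the nexin-dynein regulatory complex set the spacing of the arms and link neighbouring doublets. In frontal cortex 2 of 5 members were called higher and in cerebellum 4 of 5. Drc7 (chr8:95781716-95805188), a linker subunit, was at 1.53, 1.49, 1.57 and 1.09 CPM in FC Ctrl and at 18.8, 19.0, 19.4 and 17.8 CPM in FC Upf3b-KO. All Upf3b-KO libraries lay far above all Ctrl libraries, with a log2 fold change of 3.64 ± 0.10 (adjusted p = 1.95e-17). In cerebellum Drc7 was at 0.376, 0.412, 0.495 and 0.145 CPM in Ctrl and at 10.1, 10.3 and 9.72 CPM in Upf3b-KO, a log2 fold change of 4.73 ± 0.19 (adjusted p = 6.36e-14). Drc1, the scaffold of the same complex, rose only in cerebellum by the call (log2 fold change 1.17 ± 0.16, adjusted p = 3.46e-06), and the difference between regions, 0.81 ± 0.17, was under the fold limit. Ccdc39, which forms the ruler with Ccdc40, averaged 9.73 ± 0.50 and 16.3 ± 0.43 CPM in frontal cortex (n = 4 each) and was not called in either region.

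The central apparatus, the pair of microtubules and its projections, held 11 of 14 tested members called higher in frontal cortex and 9 of 13 in cerebellum. Cfap54 (chr10:92611481-92923165), a projection protein, was at 4.03, 4.03, 4.81 and 4.71 CPM in FC Ctrl and at 18.1, 18.5, 16.2 and 16.8 CPM in FC Upf3b-KO. In cerebellum it was at 0.260, 0.268, 0.289 and 0.108 CPM in Ctrl and at 5.56, 7.12 and 6.08 CPM in Upf3b-KO. Both regions separated fully, at log2 fold changes of 1.91 ± 0.087 (adjusted p = 5.37e-14) and 4.65 ± 0.22 (adjusted p = 7.26e-13). Cfap65 rose by log2 fold changes of 2.42 ± 0.14 and 3.75 ± 0.22 (adjusted p = 2.82e-12 and 2.82e-11), and Spag6l, a central pair protein whose promoter is shown above, by 1.12 ± 0.075 and 3.52 ± 0.22 (adjusted p = 3.92e-11 and 6.33e-11). The member with the highest level per length in this role, Cfap74, at a mean of 11.9 TPM, was not called in either region. Cfap69 rose by 1.15 ± 0.068 and 1.16 ± 0.099 (adjusted p = 4.96e-12 and 5.42e-09), but by 0.77 and 0.95 when only protein-coding transcripts were summed, under the fold limit. Cfap119 was not called in either region.

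Radial spokes join the doublets to the central apparatus, and 6 of 12 tested members were called higher in frontal cortex and 6 of 11 in cerebellum. Rsph1 (chr17:31473993-31496378), a spoke head protein, was at 4.56, 4.94, 4.32 and 4.41 CPM in FC Ctrl and at 19.9, 21.2, 20.1 and 19.6 CPM in FC Upf3b-KO. In cerebellum it was at 1.13, 1.06, 1.25 and 1.45 CPM in Ctrl and at 6.0, 6.44 and 5.79 CPM in Upf3b-KO. The log2 fold changes were close, 2.07 ± 0.076 (adjusted p = 1.29e-15) and 2.27 ± 0.15 (adjusted p = 1.08e-10). Cfap206, which joins spokes to the doublet and whose promoter is shown above, rose by 2.69 ± 0.12 and 3.74 ± 0.29 (adjusted p = 2.15e-14 and 1.52e-09). Rsph9, Rsph3a and Rsph3b were the highest of this role per length (26.4, 31.4 and 22.4 TPM) and were not called in either region. Rsph3a and Rsph3b are near-identical copies whose reads the model may divide in different ways. Their sum averaged 42.3 ± 1.7 CPM in FC Ctrl and 42.2 ± 1.7 CPM in FC Upf3b-KO (n = 4 each).

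Dynein heavy chains carry the motor. Of 5 outer arm chains, 3 were called higher in frontal cortex, and of 4 tested in cerebellum, 1. Of 10 inner arm chains, 5 were called in frontal cortex and 6 in cerebellum, among these the copies Dnah7a (1.83 ± 0.38) and Dnah7c (1.34 ± 0.38), while Dnah7b (-0.20 ± 0.13) was not called. Dnah8 was at 0.811, 0.727, 0.415 and 1.09 CPM in FC Ctrl and at 4.86, 5.20, 6.41 and 6.06 CPM in FC Upf3b-KO (log2 fold change 2.82 ± 0.20, adjusted p = 9.43e-11), while in cerebellum its groups overlapped (0.64 ± 0.56, adjusted p = 0.335). Dnah9 had 0.71 ± 0.11 in frontal cortex, under the fold limit, and 1.80 ± 0.24 in cerebellum (adjusted p = 2.30e-06). The reads of Dnah7a, Dnah7b and Dnah7c, near-identical copies, may likewise be divided in different ways. Summed, the 3 copies averaged 5.02 ± 0.34 CPM in FC Ctrl and 8.47 ± 0.63 CPM in FC Upf3b-KO (n = 4 each), and 5.52 ± 0.59 (n = 4) and 6.17 ± 0.61 CPM (n = 3) in cerebellum.

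Dynein intermediate chains hold the motors to the doublet, and 2 of 5 were called higher in each region, among them Dnai3, singled out after its values were seen, at log2 fold changes of 3.40 ± 0.25 and 3.81 ± 0.44. Dnai1 averaged 4.38 ± 0.29 and 6.87 ± 0.21 CPM in frontal cortex and was called only in cerebellum (1.11 ± 0.18, adjusted p = 3.06e-05), a call lost without Cere Ctrl 2 (0.95). Dnai4 was not called in either region. Assembly factors load arms in the cytoplasm, and 3 of 9 tested were called higher in each region. Dnaaf1 was at 1.22, 1.12, 1.31 and 1.69 CPM in FC Ctrl and at 10.2, 11.9, 10.3 and 11 CPM in FC Upf3b-KO (2.95 ± 0.13, adjusted p = 2.15e-14). Dnaaf9, the highest of this role per length (56.1 TPM), averaged 111 ± 3.3 and 131 ± 5.3 CPM in frontal cortex and 148 ± 2.8 and 158 ± 6.4 CPM in cerebellum and was not called. Dnaaf10 was not called in either region, and Dnaaf6 and Dnaaf6rt, near-identical copies, were at 0 in all 7 cerebellar libraries used and too low to be tested in frontal cortex.

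Microtubule inner proteins line the doublet, and 12 of 16 members were called higher in frontal cortex and 6 of 13 tested in cerebellum. Cfap68 and Cfap20, the highest of the role (64.7 and 60.8 TPM), were not called. Among tektins, filament proteins of the doublet wall, 5 of 6 tested were called higher in frontal cortex and 2 of 3 in cerebellum. Tekt2 was at 0.540, 0.515, 0.464 and 0.528 CPM in FC Ctrl and at 3.78, 4.57, 4.75 and 4.72 CPM in FC Upf3b-KO (3.04 ± 0.18, adjusted p = 4.01e-12). Tekt1 rose in both regions, by 2.16 ± 0.13 and 1.16 ± 0.25 (adjusted p = 3.42e-12 and 5.25e-04), the second under the fold limit (0.98) without Cere Ctrl 4. Of 18 other Cfap genes, 9 were called higher in frontal cortex, and 6 of 14 tested in cerebellum.

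**Figure D3:**
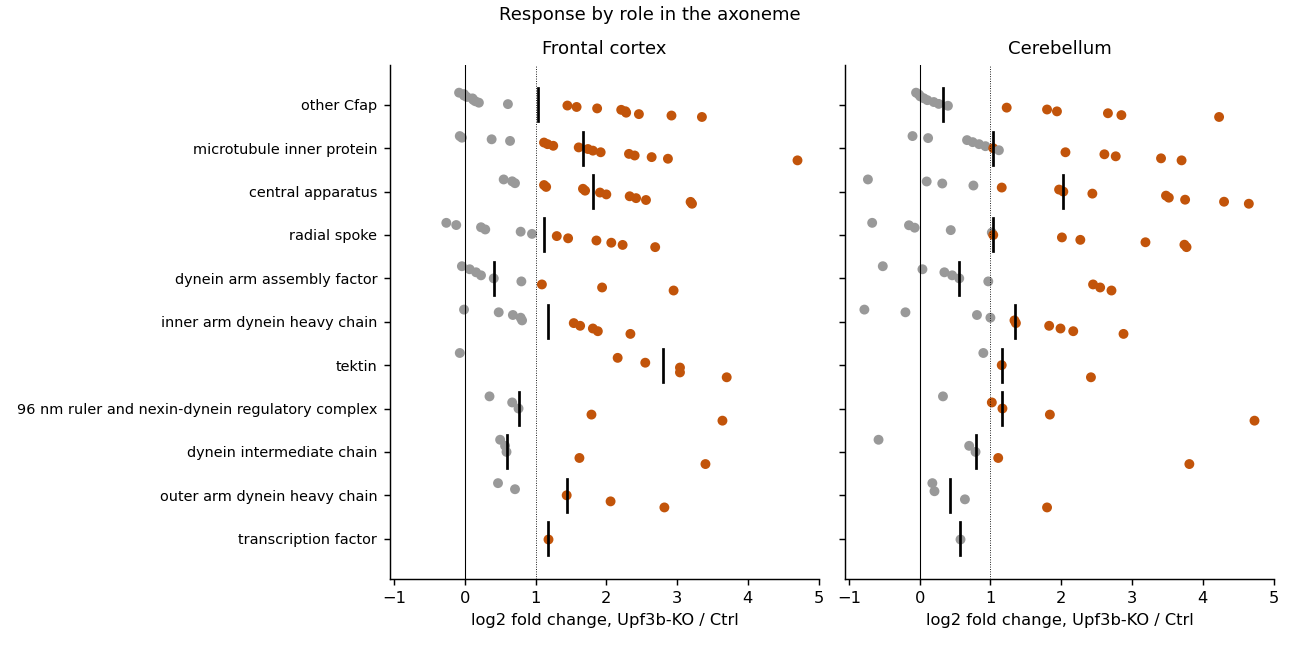
Log2 fold change (Upf3b-KO over Ctrl) of each tested member, by role, in frontal cortex (left) and cerebellum (right). Orange points are called higher, grey points are not called, black bars are medians and the dotted line marks a 2-fold change. No point is called lower, and each role spans called and uncalled members apart from Foxj1 alone.

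The members highest per length did not change by the call. The 11 highest (Cfap36, Cfap68, Cfap20, Cfap418, Dnaaf9, Cfap410, Rsph3a, Cfap298, Cfap97, Rsph9 and Rsph3b) had means of 66.1 down to 22.4 TPM over all 15 libraries, Ctrl and Upf3b-KO together. None of the 11 was called in either region, with log2 differences between -0.26 and 0.38 in frontal cortex and between -0.15 and 0.67 in cerebellum. Rsph1 was next at 16.3 TPM, but that mean holds the change itself, from 9.08 TPM in FC Ctrl to 40.5 TPM in FC Upf3b-KO. Ordered by Ctrl libraries alone, the 11 highest in FC Ctrl and the 13 highest in Cere Ctrl had no call in either region, and the next were Cfap90 (16.5 TPM, called in cerebellum) and Dnah6 (7.01 TPM, called in frontal cortex). The median member was at 2.38 TPM. Cfap36 (chr11:29165912-29197443), for one, was at 116, 115, 112 and 115 CPM in FC Ctrl and at 113, 112, 117 and 115 CPM in FC Upf3b-KO.

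In Ctrl mice the regions themselves differed. Of 85 members tested, 43 were called lower in cerebellum than in frontal cortex and 4 higher, where 15.9% of all 17521 genes were called lower and 9.18% higher. The 4 were Dnah6, Dnah11, Hydin and Dnah7b. For Dnah7b (1.21) the copies Dnah7a (-2.81) and Dnah7c (-2.19) went the other way, and the 3 copies summed were at 5.02 CPM in FC Ctrl and 5.52 CPM in Cere Ctrl. The part of read division among the copies in this call was not tested. Dnah6 (chr6:72994589-73199178), an inner arm chain, was at 1.89, 1.82, 1.57 and 1.80 CPM in FC Ctrl and at 19.6, 19.9, 17.3 and 17.6 CPM in Cere Ctrl (log2 difference 3.34 ± 0.099, adjusted p = 1.73e-17). Lower in cerebellum were, among others, Cfap90, a microtubule inner protein, at 13.1, 12.0, 13.1 and 13.4 CPM in FC Ctrl and 0.203, 0.588, 0.429 and 0.253 CPM in Cere Ctrl (-5.16 ± 0.17, adjusted p = 1.68e-16), Drc1 (-2.89 ± 0.11), Dnaaf11 (-4.42 ± 0.19), Spag6l (-4.20 ± 0.19) and Cfap20dc (-2.51 ± 0.11).

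The response to Upf3b loss differed between the regions for 29 of 102 members tested. For 18 the log2 fold change was higher in cerebellum and for 11 lower, against 6.36% and 3.04% of all 19831 genes. Of 88 members tested in both regions, 30 were called higher in both, 16 only in frontal cortex and 15 only in cerebellum, and 27 in neither. The 30 are 65.2% of the 46 called in frontal cortex and 66.7% of the 45 called in cerebellum. Over all 16754 genes tested in both, 527 were called higher in both, which is 57.4% of the 918 called higher in frontal cortex and 31.6% of the 1669 called higher in cerebellum, and the difference between these shares and those of the members was not tested. The difference itself was called for 8 of the 16 and 9 of the 15, so a call in 1 region alone did not show a difference for the rest. The 13 members called in frontal cortex but not listed here were too low to be tested in cerebellum. Across the 88, Pearson's r between the log2 fold changes was 0.48, the same as over all 16754 genes tested in both (0.48), with Spearman's rho at 0.49 for the members. The genes share libraries within each region, and this is a description only.

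**Figure D4:**
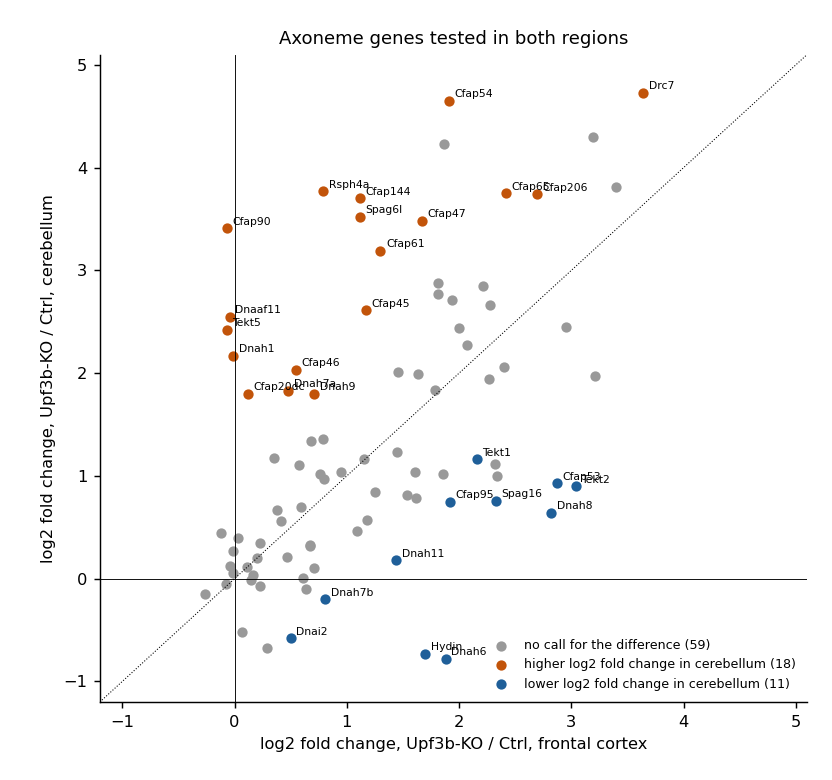
Log2 fold change (Upf3b-KO over Ctrl) in frontal cortex (x) and cerebellum (y) of the 88 members tested in both regions. Orange and blue points are the 18 and 11 whose difference between regions was called, and the dotted line marks equal change. Dnah6 and Hydin are among the points below 0 in cerebellum.

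Some members that were lower in Cere Ctrl than in FC Ctrl were called in cerebellum and not in frontal cortex. Cfap90 was at 13.4, 12.4, 13.4 and 12.7 CPM in FC Upf3b-KO, within the range of Ctrl, and at 4.36, 3.89 and 4.08 CPM in Cere Upf3b-KO. The difference between the regions was 3.46 ± 0.21 (adjusted p = 4.53e-13). Tekt5, a tektin, had log2 fold changes of -0.07 ± 0.098 and 2.42 ± 0.15 and a difference of 2.48 ± 0.19 (adjusted p = 2.84e-11). Rsph4a, a spoke head protein, showed 0.79 ± 0.099 and 3.77 ± 0.21 and a difference of 2.97 ± 0.22 (adjusted p = 1.89e-11). Dnah1, Dnaaf11 and Cfap20dc likewise had frontal cortex values of -0.01, -0.04 and 0.12 and cerebellar values of 2.17, 2.55 and 1.80. For Dnah1 the difference between regions was 2.17 over all transcripts and 0.91, under the fold limit, over protein-coding transcripts only. Its coding transcript ENSMUST00000048603 averaged 3.07 and 4.62 CPM in frontal cortex (0.53, adjusted p = 0.0986), and ENSMUST00000228429, which has no defined coding sequence, 5.37 and 4.18 CPM (-0.43, adjusted p = 0.134). The comparisons with Ctrl share libraries with the comparison of the regions.

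Dnah6 and Hydin, both higher in Cere Ctrl than in FC Ctrl, were called in frontal cortex and not in cerebellum. Dnah6 rose in frontal cortex, to 6.52, 7.94, 5.80 and 7.12 CPM (1.88 ± 0.13, adjusted p = 1.05e-10). In Cere Upf3b-KO it was at 11.3, 10.8 and 11.6 CPM, below all Ctrl libraries, a log2 difference of -0.78 ± 0.074 (adjusted p = 2.46e-08) under the fold limit. Its retained-intron transcript ENSMUST00000114038, described below, had a log2 fold change of -1.59 in cerebellum. Hydin (chr8:110993583-111337133), a central apparatus protein, was at 0.841, 0.788, 0.899 and 1.12 CPM in FC Ctrl, at 3.33, 2.68, 2.83 and 3.67 CPM in FC Upf3b-KO, at 2.60, 3.18, 3.30 and 3.62 CPM in Cere Ctrl and at 2.30, 1.87 and 1.76 CPM in Cere Upf3b-KO. The differences between regions were -2.67 ± 0.15 for Dnah6 and -2.45 ± 0.25 for Hydin (adjusted p = 4.81e-14 and 6.89e-09). Spag16 (-1.57 ± 0.20) and Tekt2 (-2.14 ± 0.36) also had the smaller change in cerebellum. Dnai2 differed by -1.09 ± 0.22, with opposite signs of about the same size, 0.50 in frontal cortex and -0.58 in cerebellum, neither called. Without Cere Upf3b-KO 3 or 4 this difference was -0.97, under the fold limit.

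The annotation gives 490 transcripts for the 104 genes, 28 of them of the nonsense-mediated decay type. At transcript level, 37 of 175 tested were called higher in frontal cortex and 1 lower, against 2.76% and 0.461% of all 42047. In cerebellum 23 of 148 were higher and 1 lower, against 3.45% and 1.31% of all 44259. These counts moved with the processing. Higher and lower together, leaving out 1 library gave between 31 and 37 in frontal cortex and between 11 and 20 in cerebellum (12, 11 and 14 without Cere Upf3b-KO 2, 3 and 4), and DESeq2 gave 65 and 46. With the replicate number as a block in the fit, 12 and 1 were called. In both regions 4 transcripts of the decay type were tested and 0 were called. In frontal cortex these were ENSMUST00000143623 (Cfap126), ENSMUST00000162547 (Cfap92), ENSMUST00000140820 (Cfap46) and ENSMUST00000212684 (Cfap20), with adjusted p of 0.434, 0.589, 0.647 and 0.818 and log2 fold changes of 2.09 ± 1.5, 1.30 ± 1.2, 0.94 ± 1.0 and -0.19 ± 0.36. In cerebellum, ENSMUST00000176756 (Dnah11) had 2.55 ± 1.3 (adjusted p = 0.243) and ENSMUST00000239252 (Cfap96) 0.52 ± 1.6 (adjusted p = 0.875). ENSMUST00000140820 (Cfap46) and ENSMUST00000212684 (Cfap20) had 1.84 ± 1.2 and 0.20 ± 0.68 there (adjusted p = 0.344 and 0.883). All were under 2 CPM in every library, and their standard errors were wide.

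Transcripts of 4 genes were called where the gene was not. ENSMUST00000102963 of Dnai1 averaged 0.974 ± 0.26 CPM in FC Ctrl and 3.91 ± 0.63 CPM in FC Upf3b-KO (n = 4 each, log2 fold change 1.95 ± 0.27, adjusted p = 0.00160). ENSMUST00000238412 of Dnah14 was at 0 in all FC Ctrl libraries and at 0.614 to 1.59 CPM in FC Upf3b-KO (adjusted p = 0.00189). ENSMUST00000232602 of Rsph3b averaged 3.88 ± 0.31 and 2.0 ± 0.25 CPM there (n = 4 each, -1.02 ± 0.17, adjusted p = 0.00461). In cerebellum ENSMUST00000114038, a retained-intron transcript of Dnah6, averaged 8.85 ± 1.4 CPM in Ctrl (n = 4) and 2.94 ± 0.86 CPM in Upf3b-KO (n = 3), a log2 fold change of -1.59 ± 0.25 (adjusted p = 0.00363). Leaving out each library in turn kept the Dnai1 transcript called in 8 of 8 fits, Dnah14 in 5 of 8 (lost without FC Upf3b-KO 1, 3 or 4), Rsph3b in 1 of 8 (kept without FC Upf3b-KO 1) and Dnah6 in 3 of 7 (lost without Cere Ctrl 1 or 2 or Cere Upf3b-KO 2 or 3). The adjusted p of edgeR in the fits that lost the call was 0.0101 to 0.0108 for Dnah14, 0.0123 to 0.0176 for Rsph3b and 0.0109 to 0.0202 for Dnah6. The log2 fold changes moved little in those fits, lying between -0.95 and -1.05 for Rsph3b and between -1.40 and -1.56 for Dnah6. With the replicate number as a block, edgeR called none of these transcripts, that of Dnai1 included (adjusted p 0.0231 to 0.0948).

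Markers of other cells moved with the members, and their part in the changes was not tested. Choroid plexus markers were called higher in Upf3b-KO for 13 of 13 genes in frontal cortex and 12 of 13 in cerebellum. Their summed level was 26.1 to 26.9 CPM in FC Ctrl and 2341 to 2395 CPM in FC Upf3b-KO, and 35.1 to 38.6 and 1488 to 1511 CPM in cerebellum. Transthyretin (Ttr), the main product of the choroid plexus, averaged 7.94 ± 0.38 and 1848 ± 26 CPM in frontal cortex (n = 4 each). Ependymal markers that are not members were called higher for 11 of 14 genes in each region, at sums of 53.9 to 57.3 and 139 to 142 CPM in frontal cortex and 68.9 to 73.7 and 146 to 151 CPM in cerebellum. A single gene, Tppp3, made up most of the cerebellar sum (53.9 CPM in Cere Ctrl and 107 CPM in Cere Upf3b-KO), and 9 of 13 markers tested were called lower in Cere Ctrl than in FC Ctrl and 2 higher. Male germ cell markers were called higher for 18 of 19 genes in frontal cortex and 9 of 12 tested in cerebellum. Their sums were 36.1 to 41.6 and 285 to 299 CPM in frontal cortex and 6.16 to 7.30 and 24.1 to 26.9 CPM in cerebellum. No gene of these 3 lists was at 0 in all libraries of any group.

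**Figure D5:**
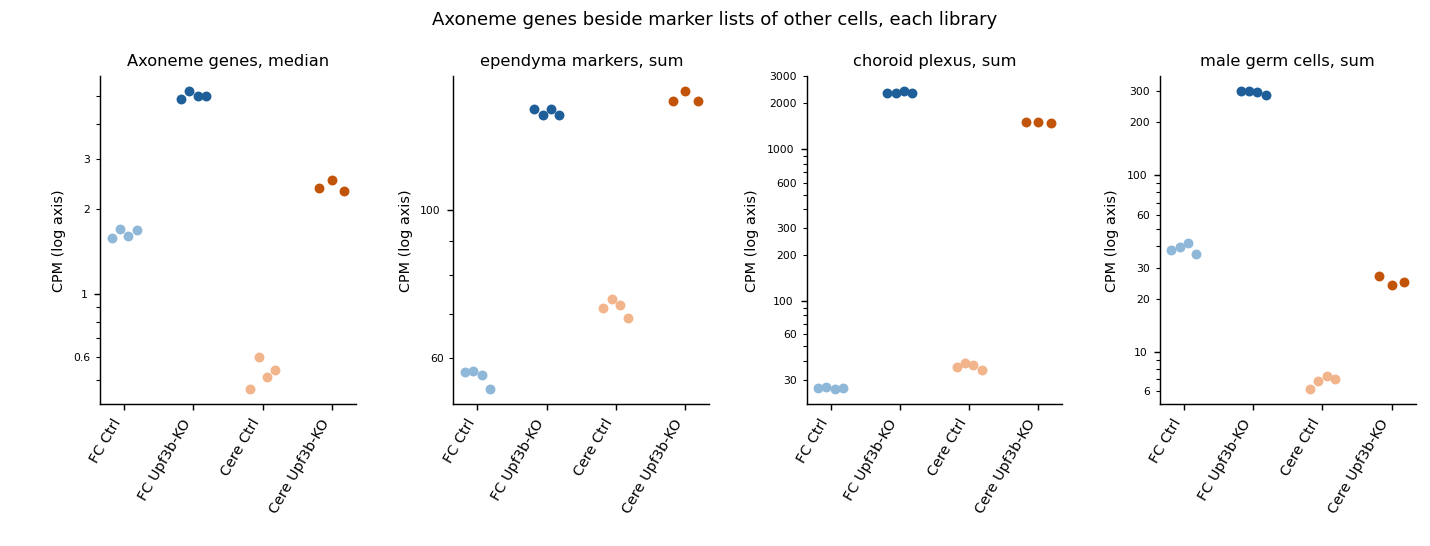
Median CPM of the 104 axoneme genes and summed CPM of ependymal, choroid plexus and male germ cell markers in each library (points), on log axes. In all 4 panels each Upf3b-KO library lies above each Ctrl library of its region, and the choroid plexus sum goes from 26.1 to 26.9 CPM to 2341 to 2395 CPM in frontal cortex.

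Neuronal markers moved in cerebellum. Of 8 cerebellar neuron markers, 6 were called lower in Cere Upf3b-KO, and their sum was 9678 to 9822 CPM in Ctrl and 4134 to 4140 CPM in Upf3b-KO. In frontal cortex 1 of 6 tested was called lower (Cbln1). Of 8 cortical neuron markers, Fezf2 was called lower in frontal cortex, and in cerebellum Neurod2 was called lower and Lamp5 higher, at 0.506 ± 0.21 CPM in Ctrl (n = 4) and 123 ± 2.1 CPM in Upf3b-KO (n = 3), against 98 CPM in FC Ctrl. The part of tissue composition in the values of the members was not tested.

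Axoneme genes outside the naming rule moved with the members, and of the transport genes of all cilia 1 was called. Of 35 other axoneme genes measured, 24 of 35 tested were called higher in frontal cortex and 18 of 34 in cerebellum, 0 lower, with median log2 fold changes of 1.15 and 1.15. Of 32 intraflagellar transport genes, which build cilia of every kind, 1 (Ift70a2) was called higher in frontal cortex and 0 in cerebellum, with medians of 0.12 and 0.17. Kif17, a motor of that list, was the only one called for a difference between regions (-1.04). Of 9 BBSome genes, whose coat sorts ciliary membrane proteins, 0 were called in either region.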

How the data were processed

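The authors depleted ribosomal RNA, made SMART-Seq libraries, sequenced read pairs, aligned them to GRCm39 with STAR 2.5.2b and deposited RSEM expected counts per Ensembl transcript, not scaled for depth or length. Whether strand was used was not given in the sources used here, so overlapping genes are uncertain. Of 142435 transcripts, 141102 matched GENCODE vM39 (1333 did not). They were rounded and summed per gene.

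Counts were analysed in R 4.3.3 with edgeR 4.0.16 (limma 3.58.1): filterByExpr (minimum count 10, total 15), TMM scaling and quasi-likelihood F tests, p adjusted by Benjamini-Hochberg over all features tested. The interaction used all 15 deep libraries. Log2 fold changes follow TMM, CPM the library totals. DESeq2 1.42.0 was an alternative. On simulated data the transcript-level fits missed many changes, so an uncalled transcript says little. How well the gene-level fits find changes at the low levels of most members is not shown here. An uncalled low member was therefore not shown to be unchanged.

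The members, lists, roles and thresholds were chosen with earlier results of these data known. Named were Foxj1, the 3 members highest in TPM of each role, and the 5 with the smallest adjusted p per comparison and direction. The X-box letters were chosen after the pattern counts were seen. Alternatives were other scaling, filters, thresholds, protein-coding transcripts only, a replicate block, all groups in one fit, the shallow library, and each library left out.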

Additional observations from a re-analysis of the deposited data

Results flagged for a closer look

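The responses of 29 members (18 with a higher log2 fold change in cerebellum, 11 with a lower one) differed between the regions by the interaction test. Among the named members the log2 difference, cerebellum minus frontal cortex, was 1.04 for Cfap206, 1.67 for Cfap20dc, 2.74 for Cfap54, 1.33 for Cfap65, 3.46 for Cfap90, 2.58 for Dnaaf11, 2.17 for Dnah1, 1.33 for Dnah7a, 1.08 for Dnah9, 1.08 for Drc7, 2.97 for Rsph4a, 2.39 for Spag6l and 2.48 for Tekt5. It was -1.27 for Dnah11, -2.67 for Dnah6, -1.03 for Dnah7b, -2.18 for Dnah8, -1.09 for Dnai2, -2.45 for Hydin, -1.57 for Spag16, -1.02 for Tekt1 and -2.14 for Tekt2. Dnah7a and Dnah7b are near-identical copies with opposite signs here, and the part of read division between them was not tested. The adjusted p from edgeR ran from 4.81e-14 (Dnah6) to 0.00586 (Cfap206). The calls of Cfap206, Cfap65, Dnah1, Dnah7a, Dnah7b, Dnah8, Dnah9, Dnai2, Drc7 and Tekt1 were each lost under at least 1 alternative. Dnah8, for one, lost it without Cere Ctrl 2 (-1.93).

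Single libraries stood apart from the other 3 of their group in 9 of 126 sets of 4 values examined, where chance gives about 1 in 20. They were Cfap410 in FC Ctrl 4 (26.2 CPM, others 29.0 to 29.2) and in Cere Ctrl 2 (22.2 CPM, others 18.7 to 19.2), Cfap54 in Cere Ctrl 4 (0.108 CPM, others 0.260 to 0.289), Cfap68 in FC Upf3b-KO 1 (48.7 CPM, others 47.1 to 47.4) and Dnaaf9 in FC Ctrl 2 (106 CPM, others 112 to 113). Dnah9 in FC Ctrl 2 was at 5.06 CPM (others 4.03 to 4.14), Drc7 in FC Ctrl 4 at 1.09 CPM (others 1.49 to 1.57), Rsph9 in FC Ctrl 2 at 16.1 CPM (others 14.7 to 14.9) and Rsph9 in FC Upf3b-KO 4 at 13.3 CPM (others 15.1 to 15.5).

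The library left out for depth, Cere Upf3b-KO 1, held 57 counts of 21 members. Their sum was 877 CPM, against 606 to 623 CPM in Cere Ctrl and 799 to 806 CPM in the other Cere Upf3b-KO libraries.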

How the results depend on the processing

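Counts of called members moved by over 1.5 times under 1 of the alternatives run: with only an adjusted p below 0.05 required, cerebellum gave 69 and the interaction 44 (transcripts 68 in frontal cortex and 52 in cerebellum). Leaving out each library gave 58 to 60 members in frontal cortex, 41 to 44 in cerebellum, 25 to 29 for the interaction and 46 to 49 between regions in Ctrl. With the shallow library 36 members were called in cerebellum. Transcript counts were less stable: DESeq2 gave 65 in frontal cortex and 46 in cerebellum, and leaving out each library gave 31 to 37 and 11 to 20 (12, 11 and 14 without Cere Upf3b-KO 2, 3 and 4), and the cause was not tested. Libraries with the same replicate number showed little shared deviation from their group means (correlations -0.129 to 0.198). Because counting error makes up much of these deviations, the check cannot show whether such libraries share an animal. With the replicate block, members called were 59 in frontal cortex, 40 in cerebellum, 25 for the interaction and 46 between regions, and transcripts 12 in frontal cortex and 1 in cerebellum, with none of the 4 transcripts called apart from their gene among them (adjusted p 0.0231 to 0.0948). Without a filter the Rsph3b transcript was also lost (0.0251). Of 80 values of named members, 16 lost their call under at least 1 alternative and 0 turned sign. Most often these were interaction values near the fold limit (Cfap206, Dnah7b, Tekt1 and Dnah9) and the low Dnah8 between regions. In the interaction, summing only protein-coding transcripts took Dnah1 to 0.91 and Cfap65 to 0.83, and leaving out Cere Ctrl 4 took Drc7 to 0.85.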
